A study of Mus musculus with 32 samples.

Results

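The histone lysine demethylases described here are the 10 genes Kdm1a, Kdm1b, Kdm3a, Kdm3b, Kdm4a, Kdm4b, Kdm4c, Kdm5b, Kdm6a and Kdm6b, taken by symbol from a table of 34223 genes in 32 single mouse embryos. The embryos were wild type and were lysed singly 28 h after in vitro fertilization, when they had reached the end of the 2-cell stage. All of them had received mRNA for histone H3.3 joined to green fluorescent protein, and fluorescent embryos were kept. In 16 embryos, called Val_LNA, this mRNA was joined in the injection by an antisense oligonucleotide with locked nucleic acid (LNA) bases against tRFValCAC, a 5′ fragment of a valine transfer RNA that the series title calls enriched in sperm. In the other 16, called Ctrl_LNA, the oligonucleotide had a scrambled sequence. There was no embryo without an injection among the samples, and the sources used here do not give the strain or the ages of the parents. No label names the mating or the day of injection of an embryo, and the p-values therefore rest on differences among single embryos whose common origin is unknown. With 1 library per embryo, fewer cells and less RNA per cell cannot be told apart.

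Lysine demethylases remove methyl groups from histone tails. Kdm1a and Kdm1b use a flavin cofactor and act on lysine 4 of histone H3, a mark of promoters and enhancers. The others are dioxygenases with a Jumonji domain that need iron and 2-oxoglutarate. Kdm5b also acts on lysine 4, the Kdm3 and Kdm4 enzymes act on lysine 9, a mark of silent chromatin (the Kdm4 enzymes also on lysine 36), and Kdm6a and Kdm6b act on lysine 27, the mark set by Polycomb. In the mouse 2-cell embryo these marks are rewritten while the genome of the embryo is being switched on.

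Recovered depth was 2592925 to 6259870 reads per embryo. Ctrl_LNA 48 stood apart from the rest, with 7276 genes above 0 from 5122089 reads, against 16687 to 20200 in the other 31 embryos. Most results that rest on Ctrl_LNA 48 are therefore given with and without it, and some descriptions only without it. The 9 listed transcripts of the late 2-cell embryo summed to 5230 to 25533 normalised counts in Val_LNA (median 9156) and 2916 to 26544 in Ctrl_LNA (median 6191). Of 8 transcripts known from the oocyte, all were in the table, and they summed to 4783 to 31601 in Val_LNA (median 12860) and 1538 to 20760 in Ctrl_LNA (median 8309), or from 4772 without Ctrl_LNA 48. Of 7 markers of cumulus and granulosa cells, Amh, Cyp19a1, Foxl2, Has2, Inhba and Ptx3 had a median under 1 over the embryos, and Tnfaip6 did not. Of the 7, 3 never reached 10 normalised counts in any embryo. The list summed to 0 to 249.7 normalised counts in Val_LNA (median 33.5) and 0 to 142.2 in Ctrl_LNA (median 15.3). The medians of these 3 sums were higher in Val_LNA, and the ranges overlapped. A list of 5 sperm transcripts had medians of 8.5 in Val_LNA and 6.1 in Ctrl_LNA. A list of 7 markers of blastocyst lineages went the other way, with medians of 275 and 302, and the ranges of both lists overlapped too. The part of cumulus and granulosa cells, or of RNA left from the oocyte, in the results below was not tested.

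Of the 10 demethylases, Kdm3b fell and Kdm4a rose in Val_LNA embryos, and the other 8 did not pass the test. All 10 passed the filter on low values, a normalised count of at least 10 in at least 8 embryos. A gene was called at an adjusted p under 0.05 in limma, where p-values were adjusted over the 15559 genes tested. That test called 2.19% of all tested genes, 0.881% as higher and 1.31% as lower in Val_LNA. The log2 fold change, Val_LNA minus Ctrl_LNA, is a difference of means of log2(normalised count + 1). The added 1 shrinks this value for low genes. Where some embryos lie near 0, as for Kdm3b and Kdm4a, the value can still exceed the change of the mean counts. The same test without Ctrl_LNA 48 called 4.19% of all genes (1.58% higher, 2.61% lower) and, of the 10, again Kdm4a higher and Kdm3b lower. EdgeR called 1.21% of all genes (0.193% higher, 1.02% lower) and, of the 10, Kdm3b alone. Without Ctrl_LNA 48 edgeR called 2.15% of all genes (0.579% higher, 1.57% lower) and again Kdm3b alone. DESeq2 called 3.3% (1.21% higher, 2.09% lower) and, of the 10, Kdm4a higher and Kdm3b and Kdm6b lower. The 16 embryos of one group did not overlap the 16 of the other for 0.0321% of genes, among them 0 of the 10.

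The median log2 fold change was -0.11 over the 10 demethylases and 0.26 over all tested genes, or -0.20 and 0.07 without Ctrl_LNA 48.

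**Figure D1:**
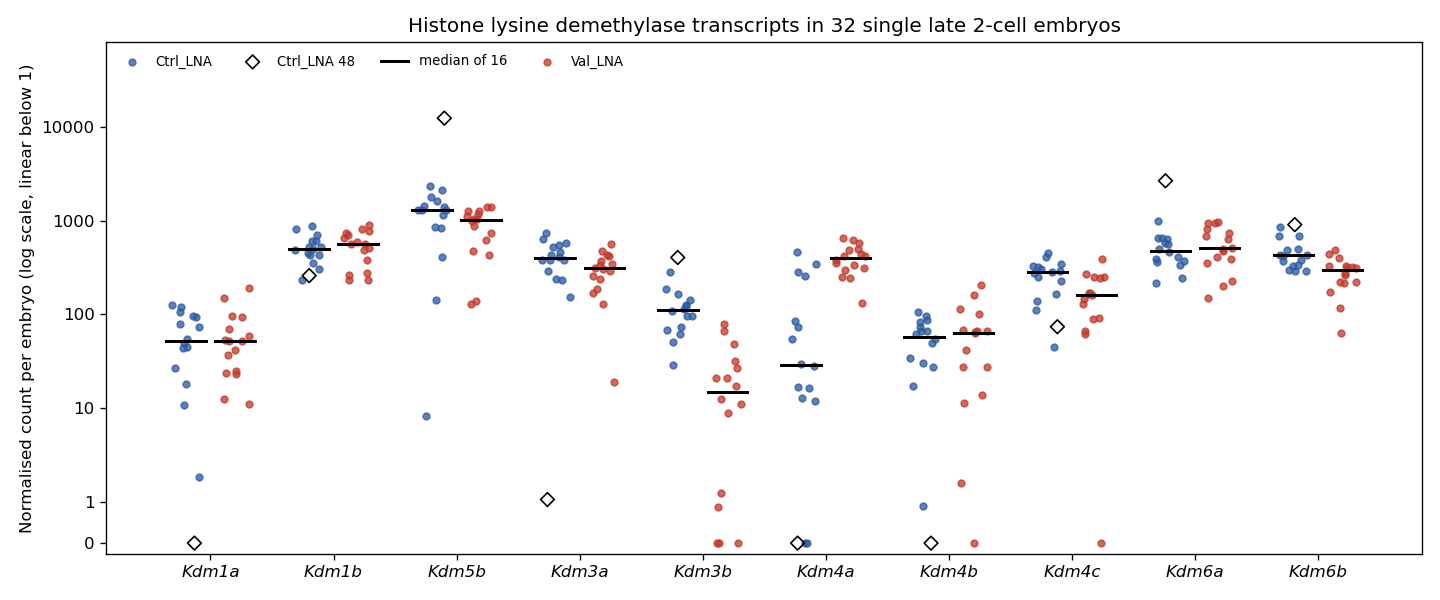
Normalised count of each of the 10 demethylases (y axis, log scale that is linear below 1) in the 16 Ctrl_LNA (blue) and 16 Val_LNA (red) embryos, 1 point per embryo, with the median of each group as a bar and Ctrl_LNA 48 as an open diamond. Kdm3b is lower and Kdm4a higher in Val_LNA, and for each of the 10 genes the ranges of the groups overlap, with Ctrl_LNA 48 at or near an end of the control range for several of them.

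Kdm3b, a demethylase of mono- and dimethylated lysine 9 that is also called JMJD1B, was among the lower transcripts in the controls and lower still in Val_LNA. In the Ctrl_LNA embryos it ranged from 28.9 to 403 normalised counts, with a median of 111. In the Val_LNA embryos it ranged from 0 to 78.9, with a median of 14.8. The ranges overlapped, but 12 of 16 Val_LNA embryos were lower than the lowest control, all 16 were lower than the control median, and 11 of 16 controls lay above the highest Val_LNA embryo. The mean fell from 133 ± 94.4 to 21.6 ± 24.2 (SD, n = 16 each), a 6.15-fold difference, or 5.31-fold without Ctrl_LNA 48, which held the highest value. The log2 fold change was -3.43 ± 0.60 (SE), with a 95% interval from -4.64 to -2.22 and a limma adjusted p of 0.000579, the rank 42 of 15559 by p.

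Kdm3b was also called by both count tests on the recovered reads. EdgeR's quasi-likelihood test gave a log2 fold change of -2.69 with an adjusted p of 0.0113, and DESeq2 gave -2.62 with an adjusted p of 0.000148. A count of 0 was found in 3 Val_LNA embryos, where it allows up to 3 reads, or 2.16 to 3.74 normalised counts. Kdm3b lies on chromosome 18, and 3468 bases of its exons overlap those of the noncoding Gm26538 on the opposite strand. The libraries do not mark strand, so reads from that overlap cannot be assigned. Gm26538 had a mean of 1.34 normalised counts in Val_LNA and 8.57 in Ctrl_LNA.

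Kdm4a, a demethylase of trimethylated lysine 9 and lysine 36 that is also called JMJD2A, moved the other way. It ranged from 133 to 648 normalised counts in the Val_LNA embryos, with a median of 399. In the Ctrl_LNA embryos it ranged from 0 to 463, with a median of 28.8. All 16 Val_LNA embryos lay above the control median and 5 above the highest control, and 12 of 16 controls lay below the lowest Val_LNA embryo. The mean rose from 104 ± 146 to 399 ± 141 (SD, n = 16 each), a 3.82-fold difference, or 3.59-fold without Ctrl_LNA 48, in which Kdm4a was at 0. The log2 fold change was 3.71 ± 0.71 (SE), with a 95% interval from 2.26 to 5.16 and a limma adjusted p of 0.0018, the rank 72 of 15559.

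The controls were uneven for Kdm4a. A level of at least 100 normalised counts, a limit chosen after the values were seen, was reached in 16 of 16 Val_LNA and 4 of 16 Ctrl_LNA embryos. These 4 were Ctrl_LNA 44, 46, 47 and 49, with 342, 463, 256 and 281 normalised counts. The other 12 controls lay between 0 and 84.9, and Ctrl_LNA 33, 34 and 48 were at 0, which allows up to 2.70 to 3.31 normalised counts. EdgeR did not call Kdm4a, with a log2 fold change of 1.84 and an adjusted p of 0.171 from all embryos, and 1.73 with an adjusted p of 0.142 without Ctrl_LNA 48. DESeq2 called it, with a log2 fold change of 1.93 and an adjusted p of 0.0284. The fold changes of the count models compare mean counts, and the limma value compares means of log values, in which controls near 0 weigh more.

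Kdm4a (ENSMUSG00000033326.15) lies on the minus strand of chromosome 4, from 118136957 to 118180043 on GRCm38. Its promoter is shown because it is the member that rose. The 250 bases before its start in RefSeq (GRCm38.p6, chr4:118180044-118180293, minus strand, written 5′ to 3′) are printed with a CCAAT box in capitals, which stands there in the reverse orientation as ATTGG. This box is the core of the site of NF-Y, a factor of many promoters.
Kdm4a: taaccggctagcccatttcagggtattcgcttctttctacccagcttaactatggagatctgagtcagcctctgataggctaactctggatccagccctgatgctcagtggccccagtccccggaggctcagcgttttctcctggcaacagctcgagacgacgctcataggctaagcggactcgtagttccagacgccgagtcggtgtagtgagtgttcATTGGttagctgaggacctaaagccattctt
The match begins 31 bases before the start. Of all 32851 promoter windows of this length, 33.8% held CCAAT on either strand. Windows were listed for 7 of the 10 members, and CCAAT also occurred in windows of Kdm1a and Kdm3a, which did not pass the test. The GC box GGGCGG, found in 32.7% of all windows, and GGATTA, the core of bicoid-class homeobox sites, found in 6.25%, did not occur in the Kdm4a window on either strand. GGATTA occurred 2 times in a window of Kdm4c.

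**Figure D2:**
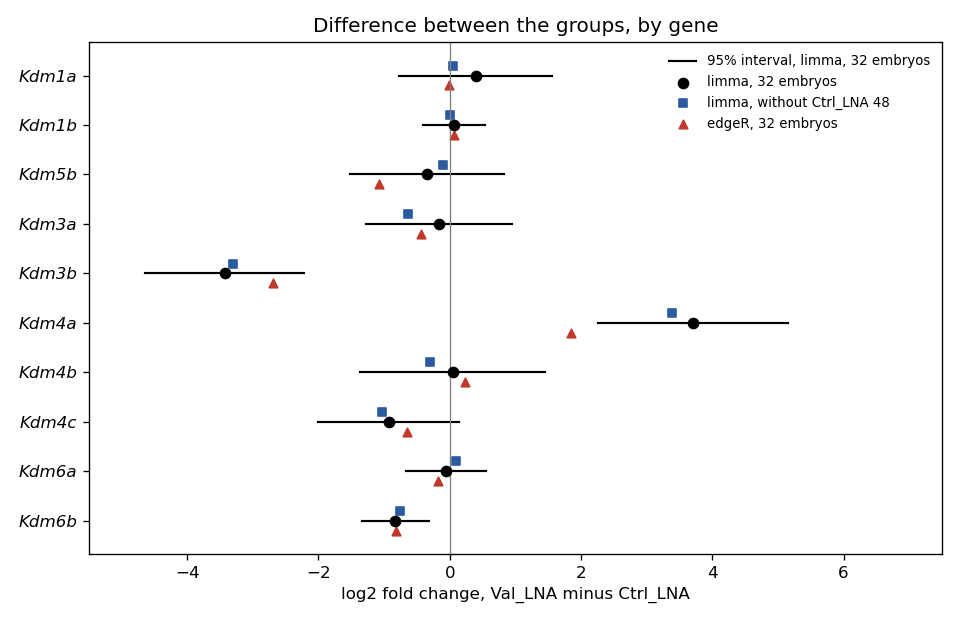
Log2 fold change (x axis, Val_LNA minus Ctrl_LNA) of each gene in limma with its 95% interval (black), in limma without Ctrl_LNA 48 (blue squares) and in edgeR (red triangles). The intervals of Kdm3b (-4.64 to -2.22) and Kdm4a (2.26 to 5.16) lie far from 0, and the edgeR value of Kdm4a (1.84) lies below its limma interval.

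In the same embryos the pair changed order. Kdm4a counts exceeded Kdm3b counts in 16 of 16 Val_LNA embryos and in 3 of 16 controls. Every Val_LNA embryo had under 100 normalised counts of Kdm3b and at least 100 of Kdm4a, a combination found in 0 of 16 controls. The pair and the limit of 100 were both picked from these same values, so this split is a description and no test. The 4 controls with at least 100 of Kdm4a also had at least 100 of Kdm3b. Within groups the levels of the pair were weakly related (Spearman's rho 0.27 over 31 embryos, without Ctrl_LNA 48 and centred on the group means, as a description).

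**Figure D3:**
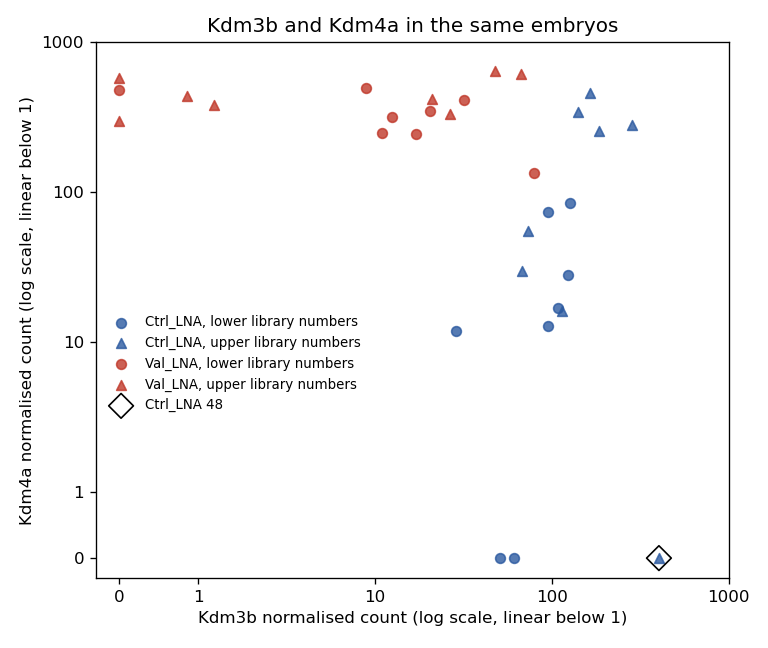
Kdm3b (x axis) against Kdm4a (y axis), both in normalised counts on log scales that are linear below 1, 1 point per embryo, with colours for the groups, circles and triangles for lower and upper library numbers and a diamond for Ctrl_LNA 48. The 16 Val_LNA embryos lie at the upper left, with Kdm3b at 0 to 78.9 and Kdm4a at 133 to 648.

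The library numbers fall into a lower and an upper run of 8 in each group. They are Val_LNA 1 to 8 and 13 to 20, and Ctrl_LNA 31 to 38 and 43 to 50. Nothing in the labels says what a run stands for. Both directions were present in each pair of runs. The Kdm3b median was 95.5 normalised counts in Ctrl_LNA 31 to 38 against 14.8 in Val_LNA 1 to 8, and 152 in Ctrl_LNA 43 to 50 against 11.1 in Val_LNA 13 to 20. Limma fitted to the lower runs called 1.16% of all genes (0.623% higher, 0.533% lower), and 0.225% (0.0129% higher, 0.212% lower) in the upper runs. For Kdm3b the log2 fold change was -2.48 (limma adjusted p = 0.101) in the lower runs and -4.38 (limma adjusted p = 0.0667) in the upper runs, or -4.18 (limma adjusted p = 0.0432) without Ctrl_LNA 48. The Kdm4a median was 14.8 in Ctrl_LNA 31 to 38 (range 0 to 84.9) against 332 in Val_LNA 1 to 8 (range 133 to 492). In the upper runs it was 156 against 428, and the ranges overlapped (0 to 463 against 299 to 648). The share of all genes whose ranges are separate between runs of 8 embryos was not counted.

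For Kdm4a the log2 fold change was 4.65 (limma adjusted p = 0.00629) in the lower runs and 2.78 (limma adjusted p = 0.397) in the upper runs, or 1.91 (limma adjusted p = 0.176) without Ctrl_LNA 48. All 4 controls with at least 100 normalised counts of Kdm4a belonged to the upper run. Limma's test of a difference between the effects in the 2 pairs of runs gave -1.87 ± 1.34 (SE) for Kdm4a and -1.90 ± 1.18 for Kdm3b, with an adjusted p of 0.817 for each. Without Ctrl_LNA 48 the value for Kdm4a was -2.73 ± 1.08 (SE, limma adjusted p = 0.81). Over all 15559 genes 0 (0%) were called for such a difference by limma, and 808 (5.19%) had p under 0.05 before adjustment.

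**Figure D4:**
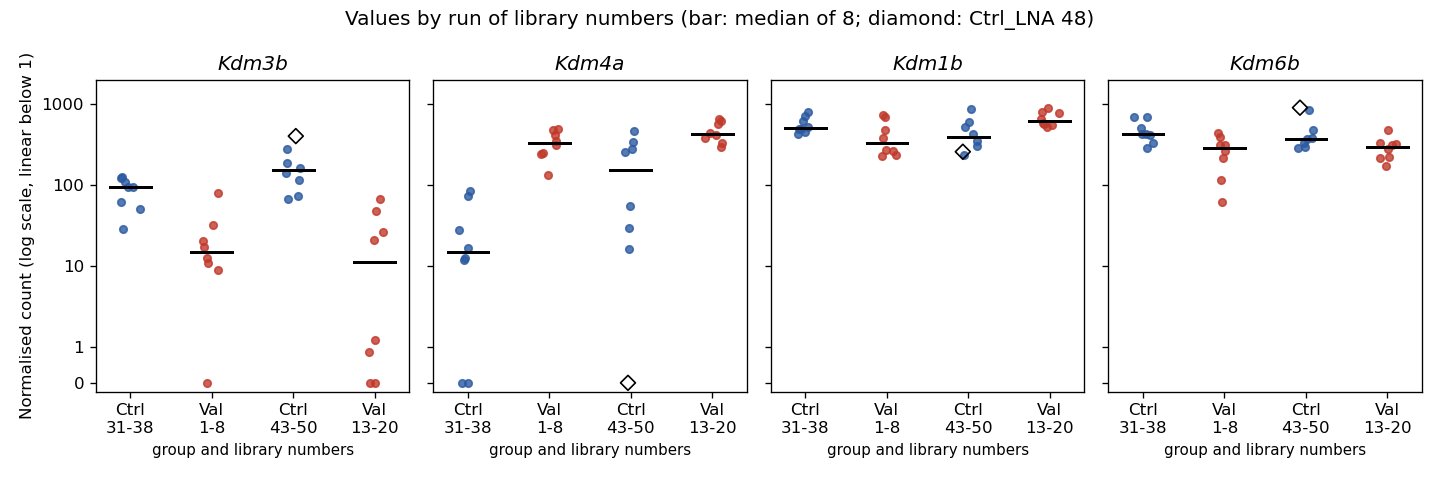
Normalised counts (y axis, log scale that is linear below 1) of Kdm3b, Kdm4a, Kdm1b and Kdm6b by group and run of library numbers, with the median of each 8 embryos as a bar and Ctrl_LNA 48 as a diamond. For Kdm4a the controls 31 to 38 lie between 0 and 84.9, and 4 of the controls 43 to 50 lie between 256 and 463.

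Among the lysine 27 demethylases, Kdm6b came closest to a call. Kdm6b (JMJD3; chromosome 11, 69398508 to 69413675) ranged from 287 to 905 normalised counts in Ctrl_LNA, with a median of 427. In Val_LNA it ranged from 62.6 to 485, with a median of 295. The groups overlapped, with 8 of 16 Val_LNA embryos below the lowest control, and 14 of 16 under its median. The means were 481 ± 198 in Ctrl_LNA and 279 ± 111 in Val_LNA (SD, n = 16 each), a 1.72-fold difference, and the log2 fold change was -0.83 ± 0.25 (SE, limma adjusted p = 0.0807). Without Ctrl_LNA 48, which held the highest value, the difference was 1.62-fold and the log2 fold change -0.76 (limma adjusted p = 0.0508). From all embryos edgeR gave an adjusted p of 0.0631, and DESeq2 called Kdm6b with a log2 fold change of -0.79 and an adjusted p of 0.0268. Its exons share 286 bases with the antisense transcript Kdm6bos, which had a mean of 18.8 normalised counts in Val_LNA and 23.3 in Ctrl_LNA.

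Kdm6a (UTX; X chromosome, 18162575 to 18279936), its relative in complexes with the methyltransferases Kmt2c and Kmt2d, gave no such difference. It ranged from 149 to 964 normalised counts in Val_LNA (median 504) and from 217 to 2662 in Ctrl_LNA (median 479), where the highest value was Ctrl_LNA 48. Without that embryo the highest control was at 993, and the groups overlapped over nearly all of their range. The log2 fold change was -0.06, with a 95% interval from -0.66 to 0.55 (limma adjusted p = 0.939), and 0.10 without Ctrl_LNA 48.

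The lysine 4 demethylases did not pass the test. Kdm1a (LSD1; chromosome 4, 136550540 to 136602723), the catalytic subunit of the CoREST repressor complex, was low, at 11.0 to 193 normalised counts in Val_LNA (median 52.2) and 0 to 126 in Ctrl_LNA (median 51.6). The groups shared most of this range. Its log2 fold change was 0.39, with a 95% interval from -0.77 to 1.55 (limma adjusted p = 0.757), and 0.05 without Ctrl_LNA 48, in which Kdm1a was at 0.

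Kdm1b (LSD2; chromosome 13, 47043499 to 47085279), the flavin demethylase of the oocyte that is needed for DNA methylation imprints, was high and even. It ranged from 229 to 902 normalised counts in Val_LNA (median 564) and from 232 to 867 in Ctrl_LNA (median 492), so the groups covered the same range. Its 95% interval was the narrowest of the 10, from -0.41 to 0.54 on the log2 scale around 0.07 (limma adjusted p = 0.911). Of the 10 genes it had the smallest p for a difference between the pairs of runs. Its log2 fold change was -0.56 in the lower and 0.69 in the upper runs, a difference of 1.26 ± 0.42 (SE, limma adjusted p = 0.817 over all genes). Kdm1b shares 505 exonic bases with Dek, a chromatin protein gene on the opposite strand, which had means of 955 and 1029 normalised counts in Val_LNA and Ctrl_LNA.

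Kdm5b (JARID1B; chromosome 1, 134560171 to 134635285), a demethylase of trimethylated lysine 4, had the highest counts. It ranged from 130 to 1408 normalised counts in Val_LNA, with a median of 1017. In Ctrl_LNA it ranged from 8.12 to 12424, with a median of 1297. The highest value was Ctrl_LNA 48, which alone made up 41.0% of the summed control counts, and the lowest was Ctrl_LNA 32. The control mean was 1896 ± 2880 with that embryo and 1194 ± 663 without it (n = 16 and 15), against 882 ± 418 in Val_LNA (SD, n = 16). The log2 fold change was -0.35, with a 95% interval from -1.52 to 0.82 (limma adjusted p = 0.791), and -0.10 without Ctrl_LNA 48. In edgeR it was -1.08 with all embryos and -0.49 without Ctrl_LNA 48 (adjusted p = 0.383 and 0.695).

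The remaining lysine 9 demethylases are the closest relatives of Kdm3b and Kdm4a. Kdm3a (JMJD1A; chromosome 6, 71588972 to 71632990) ranged from 18.7 to 559 normalised counts in Val_LNA (median 310) and from 1.05 to 736 in Ctrl_LNA (median 398), with the lowest control value in Ctrl_LNA 48. The groups overlapped, with 12 of 16 Val_LNA embryos under the median of the controls. Its log2 fold change was -0.16, with a 95% interval from -1.27 to 0.95 (limma adjusted p = 0.904), and -0.64 without Ctrl_LNA 48 (limma adjusted p = 0.306).

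Kdm4c (JMJD2C; chromosome 4, 74242497 to 74405860) ranged from 0 to 390 normalised counts in Val_LNA (median 161) and from 44.2 to 446 in Ctrl_LNA (median 280). Although the ranges overlapped, 15 of 16 Val_LNA embryos were under the median of the controls. Its log2 fold change was -0.93, with a 95% interval from -2.0 to 0.14 (limma adjusted p = 0.405), and -1.03 without Ctrl_LNA 48 (limma adjusted p = 0.31). Kdm4b (JMJD2B; chromosome 17, 56326062 to 56402870) was low in both groups, at 0 to 205 normalised counts in Val_LNA (median 63.1) and 0 to 107 in Ctrl_LNA (median 57.8). Its 95% interval ran from -1.36 to 1.46 on the log2 scale (limma adjusted p = 0.981). An interval of this width is too wide to place Kdm4b as higher, lower or equal.

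Per length, Kdm4a changed its place among the members with the group. Levels per length are normalised counts per kb of the union of all annotated exons, so a gene with long alternative ends, such as Kdm5b with 16555 bases, can be understated. Over the 31 embryos without Ctrl_LNA 48, Kdm1b was highest at a median of 94.2 per kb, followed by Kdm5b (68.1), Kdm6a (59.1), Kdm4a (48.6), Kdm6b (47.3), Kdm3a (45.5) and Kdm4c (38.8). Neighbours among these 7 had quartiles that overlapped. The quartiles of Kdm4c did not reach those of the 3 genes below it, Kdm4b (12.7), Kdm1a (10.1) and Kdm3b (3.60), whose quartiles overlapped in turn. Kdm4a ranked 2 of 10 in Val_LNA, at a median of 68.9 per kb, and 10 of 10 in Ctrl_LNA, at 4.99. The control rank pools a lower and an upper run with Kdm4a medians of 14.8 and 156 normalised counts, and ranks within runs were not taken. Kdm3b ranked 10 in Val_LNA, at 1.05 per kb, and 9 in Ctrl_LNA, at 7.89.

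**Figure D5:**
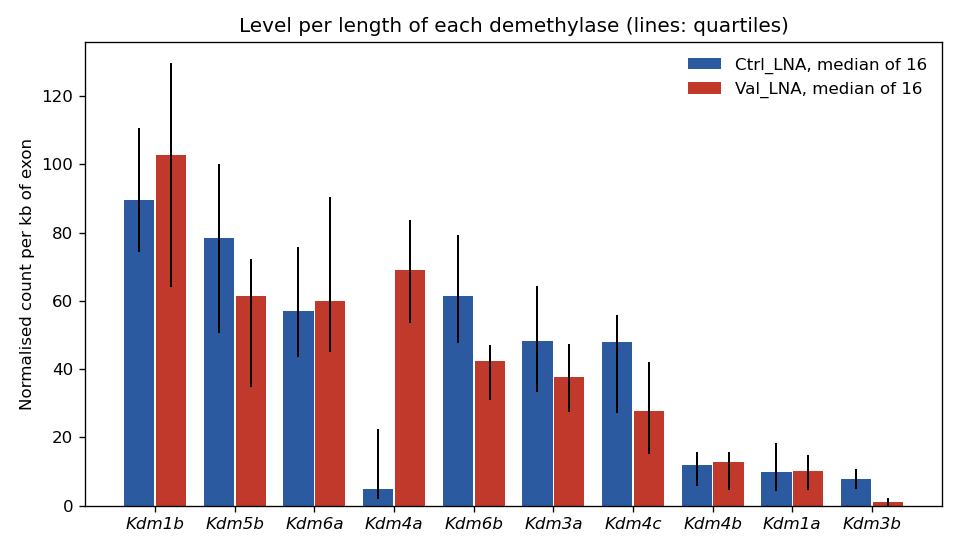
Median level per length (y axis, normalised counts per kb of exon) of each gene in Ctrl_LNA (blue) and Val_LNA (red), with the quartiles of the 16 embryos as lines. Kdm4a has the lowest bar of the 10 in Ctrl_LNA (4.99) and the second highest in Val_LNA (68.9), with both runs of library numbers pooled in each bar.

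The makeup of both lysine 9 families differed between the groups, as a description. Kdm4a made up 40.8% to 95.8% of the summed level per length of Kdm4a, Kdm4b and Kdm4c in Val_LNA embryos (median 61.7%), and 0% to 63.4% in Ctrl_LNA embryos (median 8.10%). The controls were uneven here too, with a median of 5.91% in the lower run and 42.4% in the upper run without Ctrl_LNA 48. It was over 50% of that sum in 14 of 16 and 1 of 16 embryos. Kdm3b made up 0% to 26.4% of the sum of Kdm3a and Kdm3b in Val_LNA (median 2.30%). In Ctrl_LNA its share was 3.93% to 41.3% without Ctrl_LNA 48 (median 11.5%), and 99.6% in that embryo, where Kdm3a was at 1.05 normalised counts.

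Summed per length over the 5 lysine 9 demethylases, the level was 56.3 to 213.5 per kb in Val_LNA (median 159.5) and 41.4 to 227.4 in Ctrl_LNA (median 135.4). Without Ctrl_LNA 48 the controls ran from 51.7 to 227.4 (median 136.3). The 3 lysine 4 demethylases summed to 94.1 to 229.6 (median 160.2) in Val_LNA and 117.0 to 264.2 (median 177.5) in Ctrl_LNA without Ctrl_LNA 48. The 2 lysine 27 demethylases summed to 51.3 to 167.7 (median 104.5) and 73.9 to 240.4 (median 117.2) in the same groups. In each of these sums the groups overlapped. The sums are descriptions of transcript levels, with no test.

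Variation among embryos of 1 group was wide for most members. The coefficient of variation in Val_LNA ran from 35.4% for Kdm4a and 39.9% for Kdm6b to 112% for Kdm3b. In Ctrl_LNA without Ctrl_LNA 48 it ran from 33.9% for Kdm1b to 133% for Kdm4a. Values of 0 occurred in 10 of 320 cases, in Kdm1a, Kdm3b, Kdm4a, Kdm4b and Kdm4c. Of the 45 pairs of members, 3 had a Spearman's rho above 0.5 after centring on the group means, over 31 embryos without Ctrl_LNA 48, and the median rho was -0.04. These correlations are descriptions of levels measured in the same libraries, which share their depth and scaling.

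The highest rho of these pairs was that of Kdm1b and Kdm6a, at 0.69 (Pearson's r = 0.64, or 0.58 without the 2 embryos farthest from the median of Kdm1b). It was 0.59 with the runs of library numbers centred too, 0.68 within Val_LNA and 0.67 within Ctrl_LNA. Kdm5b and Kdm4a had a rho of 0.63 (r = 0.46), and 0.45 with the runs centred. Kdm5b and Kdm4c had a rho of 0.55 (r = 0.64), and 0.67 with the runs centred.

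Of all tested genes with a regular symbol, those whose levels followed Kdm4a most closely across embryos, centred on the group means, were Snrnp70 (rho 0.86, r = 0.82), Tuft1 (rho 0.83, r = 0.85) and Mcfd2 (rho 0.80, r = 0.69), over the same 31 embryos. With Ctrl_LNA 48 included, r was 0.52, 0.88 and 0.53. Snrnp70 encodes a protein of the U1 splicing particle. Tuft1 was itself higher in Val_LNA, with a log2 fold change of 3.20 (limma adjusted p = 0.0115), while Snrnp70 and Mcfd2 did not pass. Kdm3b was followed less closely, by Eid2 (rho 0.64, r = 0.65), Slc35e3 (rho 0.62, r = 0.36) and Zfp874a (rho 0.60, r = 0.60). Slc35e3 was higher in Val_LNA, with a log2 fold change of 1.43 (limma adjusted p = 0.0026), opposite to Kdm3b, and Eid2 and Zfp874a did not pass. These genes were picked as the highest values among all tested genes. Their correlations were not centred on the runs of library numbers. The Kdm4a median of the controls was 14.8 normalised counts in the lower and 156 in the upper run.

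Other genes listed as lysine demethylases were taken by symbol, with no check of their activity, from a list of 15. Of these, 14 were in the table and 13 were tested. Of these 13, 1 was lower, 0 were higher and 12 did not pass, with a median log2 fold change of -0.23. Without Ctrl_LNA 48, 3 were lower (Kdm8, Kdm2b and Uty) and 0 higher, with a median of -0.13. Of all tested genes limma called 1.31% lower with all embryos and 2.61% lower without Ctrl_LNA 48. EdgeR without that embryo called Kdm2b (adjusted p = 2.33e-05) but not Kdm8 (adjusted p = 0.364) or Uty (adjusted p = 0.574). With all embryos the gene that fell in limma was Kdm8 (JMJD5), which was above 0 in 10 of 16 Val_LNA and 15 of 16 Ctrl_LNA embryos. It ranged from 0 to 149 normalised counts in Val_LNA (median 1.68) and from 0 to 244 in Ctrl_LNA (median 74.1), with a log2 fold change of -3.07 ± 0.83 (SE, limma adjusted p = 0.0391). Neither count test called Kdm8, with -1.63 and an adjusted p of 0.484 in edgeR and -1.61 and 0.309 in DESeq2.

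Kdm2b, a lysine 36 demethylase that brings a Polycomb complex to CpG islands and that was singled out after its values were seen, was called by both count tests, and in limma its call depended on 1 embryo. It ranged from 127 to 454 normalised counts in Val_LNA (median 246) and from 3.15 to 1188 in Ctrl_LNA (median 649), with the lowest value in Ctrl_LNA 48. Its log2 fold change was -1.02 ± 0.48 (SE, limma adjusted p = 0.318) with all embryos and -1.48 ± 0.20 (SE, limma adjusted p = 1.12e-05) without that embryo. From all embryos edgeR gave a log2 fold change of -1.43 with an adjusted p of 0.0171, and DESeq2 -1.36 with an adjusted p of 0.00143.

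The enzymes that write the same marks, and partners of the demethylases, held no call with all embryos. Of 6 lysine 9 methyltransferases 0 passed, and the one with the smallest p was Suv39h2, with a log2 fold change of 0.68 (limma adjusted p = 0.249). Of 7 tested lysine 4 methyltransferases 0 passed, with Setd1b at 1.01 (limma adjusted p = 0.222). The 6 genes of the Polycomb complex that methylates lysine 27 had log2 fold changes above 0 in limma, as did 64.3% of all tested genes, but 0 passed. Ezh2 (-0.007) and Rbbp7 (-0.05) were below 0 in edgeR. Rbbp4 had the smallest p, at 0.87 (limma adjusted p = 0.0656). Without Ctrl_LNA 48 Rbbp4 passed, at 0.90 (limma adjusted p = 0.0348).

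Of 9 methyltransferases for lysine 36, lysine 79 and lysine 20 of histone H4, 0 passed, and Setd2 was at -0.60 (limma adjusted p = 0.195). Of 9 partners, 8 of Kdm1a in CoREST and related complexes and Glyr1, a cofactor of Kdm1b, 0 passed, with Hdac1 at 0.46 (limma adjusted p = 0.423). Of 7 partners of Kdm6a 0 passed, with Pagr1a at 1.12 (limma adjusted p = 0.254). EdgeR and DESeq2 called 0 genes of these 6 lists. At an unadjusted p under 0.05 in limma there were 1 of the 6 lysine 9 and 1 of the 7 lysine 4 methyltransferases, 2 of the 6 Polycomb genes, 1 of the 9 other methyltransferases, 0 of the 9 partners of Kdm1a and Kdm1b and 2 of the 7 partners of Kdm6a. Of all tested genes 14.7% were under that p. The lists had medians between -0.20 and 0.32, against 0.26 for all tested genes.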

How the data were processed

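Each library is 1 embryo. Per the labels' protocols, polyadenylated RNA was copied with template switching, amplified by 20 PCR cycles and tagmented, without a strand mark and with no molecular identifier named, so counting floors cover counting error only. The tools named, per the submitters' processing notes, are STAR, Bowtie2, DESeq2 and SAMtools, and the build is mm10, while the sources used here give no versions and no annotation. The authors deposited a signal per gene and embryo, gene counts divided by DESeq size factors, and, in another file, the size factors, per the file headers. Their product was whole within 0.01 reads for 1095136 of 1095136 values (100%), and these reads entered the count tests.

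Limma 3.58.1 (R 4.3.3, trend and robust) was fitted to log2(normalised count + 1) of all genes passing the filter, with Benjamini-Hochberg adjustment. EdgeR 4.0.16 and DESeq2 1.42.0 on the recovered reads, other filters, pseudocounts, scalings, weights and subsets of embryos were alternatives. Tests were checked on simulated data. Identifiers of 34179 of 34223 genes matched GENCODE M21 (GRCm38), the source of coordinates and exon lengths. Promoters are from RefSeq, GRCm38.p6. All 10 members are named. In other lists the called genes, or the 1 with the smallest p, are named, and for each called member the 3 genes of highest rho. Some further genes of these lists, such as Kdm2b, Uty and Kdm4d, are named outside this rule. Members, lists and rules were chosen with earlier results of these data known. Python 3.11.15, numpy 2.4.6, pandas 2.3.3 and matplotlib 3.10.9 were used.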

Additional observations from a re-analysis of the deposited data

How the results depend on the processing

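Kdm3b kept its direction in all 18 alternatives besides leaving out single embryos, and lost its call in 2, the lower and the upper runs alone. It was called in each of 32 fits that left out 1 embryo (-3.63 to -3.21). Kdm4a kept its direction, lost its call in 5 (both edgeR normalizations, edgeR without Ctrl_LNA 48, and the upper runs with and without that embryo), and was called in each of those 32 fits (3.39 to 3.98). Kdm6b kept its direction and was called in 6 alternatives (DESeq2 with and without Ctrl_LNA 48, the Wilcoxon test, CPM, array weights and the covariate of genes detected). Kdm4c kept its direction and was called in none.

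Uncalled members near 0 changed sign. Kdm1a was -0.004 in edgeR, -0.056 after centring embryos on their median gene, -0.15 with array weights, -0.098 in edgeR and -0.088 in DESeq2 without Ctrl_LNA 48, and -0.54 in the upper runs without it, an alternative chosen after seeing the data. Kdm1b was -0.38 when centred and -0.56 in the lower runs, Kdm5b 0.41 in the lower runs and Kdm3a 0.43 in the upper runs. Kdm4b was -0.062 in limma-voom, -0.40 when centred, -0.012 in CPM, -0.31 with array weights, -0.085 with the covariate, and -0.46 and -1.22 in the upper runs with and without Ctrl_LNA 48. Kdm6a was 0.075 in the Wilcoxon test (difference of medians), 0.10 with array weights, 0.002 with the covariate, 0.13 in edgeR and 0.14 in DESeq2 without Ctrl_LNA 48, and 0.28 in the upper runs without it. Leaving out 1 embryo gave -0.003 to 0.14 for Kdm1b, -0.64 to 0.082 for Kdm3a, -0.30 to 0.39 for Kdm4b and -0.14 to 0.10 for Kdm6a.

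Of the 10 members, 1 was called higher and 1 lower in limma. The higher count was 0 in both edgeR fits, in edgeR without Ctrl_LNA 48, and in the upper runs with and without it. The lower count was 2 in DESeq2 (with and without Ctrl_LNA 48), the Wilcoxon test, CPM, array weights and the covariate, and 0 in the lower and in the upper runs. Over all genes limma called 137 higher and 204 lower. The Wilcoxon test called 190 higher and 278 lower, and CPM 140 higher and 238 lower. Higher calls were 30 in edgeR, 43 with the deposited size factors, 90 in edgeR without Ctrl_LNA 48, 87 with no filter, 61 with centring, 353 with array weights, 373 with the covariate, 268 in DESeq2 without Ctrl_LNA 48, 2 in the upper runs and 7 there without Ctrl_LNA 48. Lower calls were 325 in DESeq2, 401 in DESeq2 without Ctrl_LNA 48, 564 with array weights, 363 with the covariate, 83 in the lower runs, 33 in the upper runs and 124 there without Ctrl_LNA 48. Leaving out 1 embryo gave 100 to 245 higher and 176 to 406 lower, with the highest of both without Ctrl_LNA 48. Centring moved the median of all genes from 0.26 to -0.19, and Kdm3b (-3.88) and Kdm4a (3.26) stayed called. No paired analysis was possible because the groups share no replicate numbers.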

Other observations

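Uty, the Y-linked relative of Kdm6a, was above 0 in 4 of 16 Val_LNA and 13 of 16 Ctrl_LNA embryos. It ranged from 0 to 144 normalised counts (median 0) in Val_LNA and from 0 to 119 (median 34.1) in Ctrl_LNA, with a log2 fold change of -2.76 ± 0.88 (SE, limma adjusted p = 0.0982). Without Ctrl_LNA 48 it was -2.96 (limma adjusted p = 0.049). Neither count test called Uty, with -1.61 and an adjusted p of 0.642 in edgeR, -1.68 and 0.574 in edgeR without Ctrl_LNA 48, and -1.48 and 0.609 in DESeq2. Female embryos carry no Y chromosome, and the labels do not give the sex of an embryo. For other Y-linked genes, picked after the values of Uty were seen, the numbers of embryos above 0 differed less between the groups. Eif2s3y was above 0 in 11 of 16 embryos of each group, Ddx3y in 8 of 16 Val_LNA and 7 of 16 Ctrl_LNA embryos, and the demethylase gene Kdm5d in 10 of 16 and 13 of 16. Kdm6a had a median of 641 normalised counts in the 13 Val_LNA embryos with under 10 counts of Uty and 388 in the other 3. In Ctrl_LNA without Ctrl_LNA 48 these medians were 561 in 5 embryos and 434 in 10, and the ranges overlapped in both groups. Eif2s3y reached at least 10 normalised counts in 11 of 16 Val_LNA and 9 of 16 Ctrl_LNA embryos, and Uty in 3 and 10. Kdm5d reached this level in 3 and 6 of 16, and Ddx3y in 5 of 16 in each group. Whether the split by Uty follows the sex of the embryos was not tested, nor was its relation to Kdm6a.

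Kdm4d, a testis-enriched member of the Kdm4 family, is named outside the rule for other lists. It had a median of 38.6 normalised counts in Val_LNA (0 to 100.3) and 4.27 in Ctrl_LNA (0 to 53.6). Its log2 fold change was 1.95 ± 0.74 (SE, limma adjusted p = 0.195). Neither count test called Kdm4d, with 1.35 and an adjusted p of 0.56 in edgeR and 1.42 and 0.34 in DESeq2.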
